A study of Mus musculus with 12 samples.

Results

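The transcripts described here are 10 genes of the choroid plexus, the secretory epithelium that hangs in the brain ventricles and makes cerebrospinal fluid. They are Ttr, Folr1, Kl, Prlr, Aqp1, Slc4a5, Kcnj13, Kcne2, Clic6 and Otx2, found by symbol in a table of 24985 genes, and all 10 were among the 14742 genes that passed the filter on low counts. They were chosen by their known place in the choroid plexus and by their values in these libraries, namely a high level in the third mouse injected with tau and fed acetate (Tau acetate 3) and low levels in PBS mice on acetate. Those values are therefore given as a description, with no test. Bulk RNA-seq counted polyadenylated RNA from 1 mm slices of dorsal hippocampus, on the injected side, of 12 wild-type C57Bl6/J mice. Mice were injected on one side of the hippocampus at 6 months of age and tissue was taken 6 months later, after a test of remote fear memory.

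The 4 groups of 3 mice were PBS control (sham injection of phosphate-buffered saline, calorically matched control chow), PBS acetate (the same injection, LabDiet chow with 5% sodium acetate), Tau control (1 µg of AD tau, control chow) and Tau acetate (1 µg of AD tau, acetate chow). AD tau is aggregated tau purified from the brains of people with Alzheimer's disease, which seeds tau pathology in the neurons of a mouse that carries no tau transgene. No group carried a deletion. Each library was 1 mouse, and totals ran from 12983233 to 20218340 counted reads. The labels call the mice male, but Xist, which is transcribed from the inactive X, had 13583 to 25991 reads in all 12 libraries, and all 49 genes of the Y chromosome in the table had 0 reads. Markers of the hippocampal fields CA1, CA3 and dentate gyrus were present in every library. Tau acetate 3 stood apart in the choroid plexus genes, and mean levels, lines, correlations and fitted differences that it moved are given with and without it.

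The choroid plexus epithelium is continuous with the ependyma, the ciliated cells that line the ventricles. It loads cerebrospinal fluid with thyroid hormone carrier and folate, and moves sodium, bicarbonate, chloride and water from blood to ventricle through channels and transporters. The choroid plexus of the lateral ventricle lies against the dorsal hippocampus, so a hippocampal slice can hold more or less of it. In a bulk sample, fewer cells of a type and less RNA per cell cannot be told apart.

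By role, the members fell into carriers and receptors (Ttr, Folr1, Kl, Prlr), ion and water transport (Aqp1, Slc4a5, Kcnj13, Kcne2, Clic6) and a transcription factor (Otx2, a homeodomain protein needed for choroid plexus development and maintenance). RefSeq's table of promoters (GRCm38.p6, windows of 300 bases around a start) held 13 entries for 7 members and none for Ttr, Folr1 and Clic6. Of the promoters, 4 are shown because Kcnj13 and Slc4a5 followed Ttr closely from mouse to mouse, Kl followed it least, and this start of Otx2 was the only member entry that held the core motif of OTX proteins. Motifs found are in capitals, namely GGATTA (the OTX core TAATCC read on the other strand) in the Otx2 promoter and the E-box CAGCTG in the other promoters that held it.
Kcnj13 (chr1:87394680-87394979, minus strand): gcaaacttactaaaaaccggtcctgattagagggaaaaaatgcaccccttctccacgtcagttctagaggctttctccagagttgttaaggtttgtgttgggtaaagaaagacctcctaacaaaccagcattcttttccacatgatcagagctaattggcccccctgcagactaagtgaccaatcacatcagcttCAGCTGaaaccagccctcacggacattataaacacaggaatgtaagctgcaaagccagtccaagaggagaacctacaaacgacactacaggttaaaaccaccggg
Slc4a5 (chr6:83237125-83237424, plus strand): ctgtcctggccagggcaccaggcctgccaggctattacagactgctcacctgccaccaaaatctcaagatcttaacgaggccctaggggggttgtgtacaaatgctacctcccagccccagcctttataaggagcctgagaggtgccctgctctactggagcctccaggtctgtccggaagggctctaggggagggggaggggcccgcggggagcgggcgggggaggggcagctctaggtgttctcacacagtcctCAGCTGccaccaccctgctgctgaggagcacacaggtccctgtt
Kl (chr5:150952357-150952656, plus strand): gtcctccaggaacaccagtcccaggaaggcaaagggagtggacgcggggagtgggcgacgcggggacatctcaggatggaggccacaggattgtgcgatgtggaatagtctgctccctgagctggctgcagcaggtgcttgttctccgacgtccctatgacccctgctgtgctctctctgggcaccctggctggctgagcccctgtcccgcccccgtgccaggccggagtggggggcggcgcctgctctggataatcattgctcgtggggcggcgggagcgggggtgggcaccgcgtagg
Otx2 (chr14:48665060-48665359, minus strand): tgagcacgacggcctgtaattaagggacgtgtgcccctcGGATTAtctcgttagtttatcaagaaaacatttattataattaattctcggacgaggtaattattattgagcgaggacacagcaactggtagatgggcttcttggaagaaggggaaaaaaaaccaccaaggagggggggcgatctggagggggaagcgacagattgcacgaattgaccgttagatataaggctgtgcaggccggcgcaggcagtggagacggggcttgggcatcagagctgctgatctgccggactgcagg
The OTX core, searched on both strands, was in 1 of the 13 member entries and in 7.06% of all 32851 promoters in the table. The E-box CAGCTG was in entries of Kcnj13, Prlr and Slc4a5 and in 16.3% of all promoters, and the forkhead motif TGTTTAC or GTAAACA was in 1 entry of Prlr and in 3.65% of all promoters. A match is a match of letters, and an absent match says only that the letters are not in this window.

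The carriers were described mouse by mouse in CPM, reads scaled to a common library size after TMM. Ttr encodes transthyretin, the thyroid hormone and retinol carrier that the choroid plexus secretes. Ttr was at 50.8, 49.4 and 78.4 CPM in PBS control, 22.2, 21.5 and 35.9 CPM in PBS acetate, 148, 53.7 and 91.2 CPM in Tau control, and 40, 36.7 and 399 CPM in Tau acetate mice 1, 2 and 3. The 3 PBS acetate mice were the lowest of the 12, and Tau acetate 3 was 2.70-fold above the next mouse, Tau control 1. The 2 other Tau acetate mice lay below every mouse on the control diet.

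Folr1 encodes the folate receptor that carries folate across the choroid plexus. Its CPM were 1.98, 1.39 and 1.35 in PBS control, 0.517, 0.516 and 0.383 in PBS acetate, 0.938, 0.995 and 0.992 in Tau control, and 1.83, 0.726 and 4.24 in Tau acetate. The order of mice was not that of Ttr, because Tau control 1, the next after Tau acetate 3 in Ttr, had only 13 reads of Folr1, and PBS control 1 and Tau acetate 1 were the next highest mice.

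Kl encodes klotho, a co-receptor for FGF23 whose shed form circulates in cerebrospinal fluid, and which is known from neurons as well as from choroid plexus. Kl was at 36.0, 30.0 and 33.7 CPM in PBS control, 39.7, 45.7 and 41.0 CPM in PBS acetate, 43.7, 33.0 and 37.8 CPM in Tau control, and 33.1, 39.2 and 57.1 CPM in Tau acetate. All 12 mice lay within 1.9-fold of each other. The PBS acetate mice, lowest in Ttr, were all above every PBS control mouse in Kl.

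Prlr encodes the prolactin receptor, known to be abundant in choroid plexus. Its CPM were 5.65, 4.94 and 4.94 in PBS control, 4.39, 3.76 and 2.68 in PBS acetate, 6.35, 6.77 and 6.26 in Tau control, and 3.27, 4.48 and 10.6 in Tau acetate. Tau control was a narrow group above PBS control, with a CV of 4.2%. Some exon bases of Prlr are shared with the gene model Gm21973 on the same strand, so reads there are uncertain.

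Of the transport genes, Aqp1, the water channel of the apical membrane, was at 0.815, 0.463 and 0.406 CPM in PBS control, 0.646, 0.309 and 0.575 CPM in PBS acetate, 1.95, 0.464 and 1.07 CPM in Tau control, and 0.991, 0.726 and 3.02 CPM in Tau acetate. Slc4a5, a sodium bicarbonate cotransporter, was at 1.05, 0.695 and 0.609 CPM in PBS control, 0.517, 0.155 and 0.192 CPM in PBS acetate, 0.938, 0.597 and 0.916 CPM in Tau control, and 0.545, 0.544 and 4.88 CPM in Tau acetate. For Slc4a5, 11 mice lay at or below 1.05 CPM and Tau acetate 3 was 4.66-fold above the next. Aqp1 differed from it in that Tau control 1 also stood high, and the ranges of PBS control and PBS acetate overlapped.

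Kcnj13, the inward rectifier potassium channel Kir7.1, was at 0.640, 1.00 and 0.406 CPM in PBS control, 0.258, 0.309 and 0.447 CPM in PBS acetate, 2.74, 1.06 and 2.21 CPM in Tau control, and 1.09, 0.665 and 4.75 CPM in Tau acetate. Kcne2, a small subunit that assembles with potassium channels, was at 0.524, 1.47 and 0.677 CPM in PBS control, 0.258, 0.361 and 0.0639 CPM in PBS acetate, 0.361, 0.332 and 0.610 CPM in Tau control, and 0, 0.242 and 3.92 CPM in Tau acetate. The 3 Tau control mice were all above the 3 PBS control mice for Kcnj13, while for Kcne2 PBS control 2 came after Tau acetate 3. For the 0 reads of Kcne2 in Tau acetate 1 the exact 95% Poisson interval reaches 3.69 reads, while Tau acetate 3 had 61 reads. In Tau acetate 1, 3 reads are 0.148 CPM. Kcnj13 shares exon bases with Gigyf2 on the opposite strand. Reads were counted on the reverse strand only, but how far this kept Gigyf2 reads out of Kcnj13 was not tested.

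Clic6, a chloride channel-like protein, was at 4.31, 5.17 and 5.08 CPM in PBS control, 1.68, 2.63 and 3.51 CPM in PBS acetate, 7.14, 4.44 and 4.12 CPM in Tau control, and 4.21, 2.06 and 12.4 CPM in Tau acetate. Otx2 was at 1.51, 1.70 and 1.49 CPM in PBS control, 0.323, 0.258 and 0.767 CPM in PBS acetate, 1.88, 1.53 and 0.763 CPM in Tau control, and 1.14, 1.09 and 3.98 CPM in Tau acetate. The PBS acetate mice were below the PBS control mice for these genes without overlap. Tau control 1 was the next highest mouse after Tau acetate 3 for both. Otx2 overlaps Otx2os1 on the opposite strand and the unconfirmed model Gm49154 on its own strand, so its reads may be split.

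**Figure D1:**
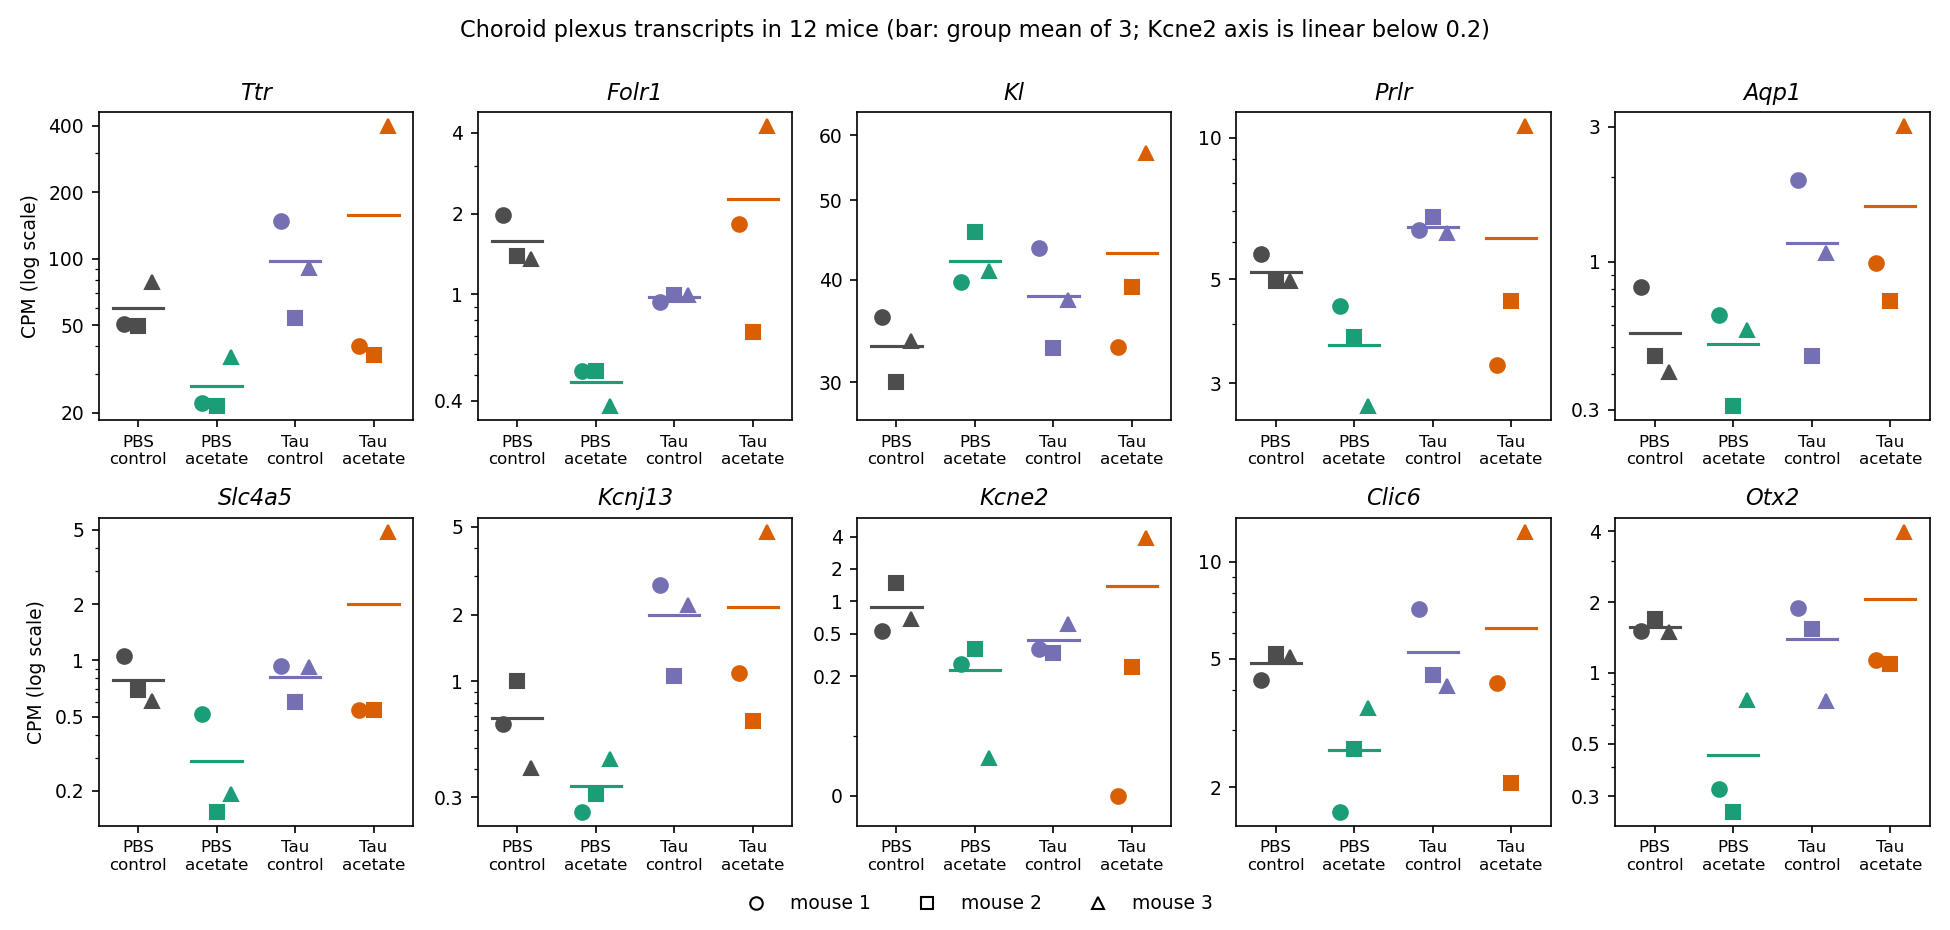
CPM of each member (log axis, for Kcne2 linear below 0.2) in the 4 groups, with 1 point per mouse, the mouse number as the point shape and the group mean as a bar. In all 10 panels the highest point is Tau acetate 3, and in Kl the PBS acetate mice (39.7 to 45.7 CPM) lie above PBS control (30.0 to 36.0 CPM).

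Levels between genes were compared per kilobase of exon, as the mean over 12 mice and over the 11 without Tau acetate 3. Ttr was at 72.1 CPM per kb, and 48.1 without that mouse. Kl was at 4.2 and 4.02 CPM per kb, Clic6 at 1.21 and 1.03, Kcnj13 at 1.02 and 0.776, and Folr1 at 0.575 and 0.460. These 5 kept their order without Tau acetate 3, and the order of the lower 5 changed. Kcne2 went from 0.416 to 0.252 CPM per kb, the highest of the lower 5 with that mouse and below Prlr (0.348 and 0.317), Aqp1 (0.363 and 0.291) and Otx2 (0.324 and 0.268) without it. Slc4a5 was lowest in both, at 0.167 and 0.106 CPM per kb. Kl and Ttr thus had the most reads behind each value (389 to 889 and 344 to 6211 per mouse), whereas Aqp1, Slc4a5, Kcnj13, Kcne2, Folr1 and Otx2 had 0 to 38 reads in each mouse other than Tau acetate 3. At 3 reads, as for Slc4a5 in PBS acetate 2 and 3, the exact 95% Poisson interval is 0.619 to 8.77 reads, which covers counting error only.

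Tau acetate 3 was the highest mouse for 10 of the 10 members, and it was the highest mouse for 8.19% of all genes tested. It was at or over 2-fold above the median of the other 11 mice for 9 of 10 members and for 1.3% of all genes. Since the members were chosen for this mouse, nothing is read from the counts. The ratio to that median differed between members. It was 10.9 for Kcne2, 8.18 for Slc4a5, 8.07 for Ttr and 7.14 for Kcnj13. It was 4.67 for Aqp1, 4.27 for Folr1, 3.49 for Otx2 and 2.94 for Clic6. The lowest ratios were those of Prlr, at 2.14, and Kl, at 1.51.

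As a difference in level, the order changed. Per kilobase, the excess of Tau acetate 3 over the median of the other 11 mice was 295 CPM for Ttr, 3.22 for Kcnj13, 2.09 for Clic6, 2.06 for Kl, 2.01 for Kcne2 and 1.41 for Folr1, and it was 0.369 to 0.903 for Prlr, Otx2, Slc4a5 and Aqp1. Kl, with the lowest ratio, had an excess per kilobase close to those of Clic6 and Kcne2, on a base of 37.8 CPM (the median of the other 11) against 4.21 CPM for Clic6 and 0.361 CPM for Kcne2. Its excess of 19.3 CPM was 3.95 times the SD of the other 11 mice, the lowest such value of the 10. The highest was that of Slc4a5, at 15.16.

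**Figure D2:**
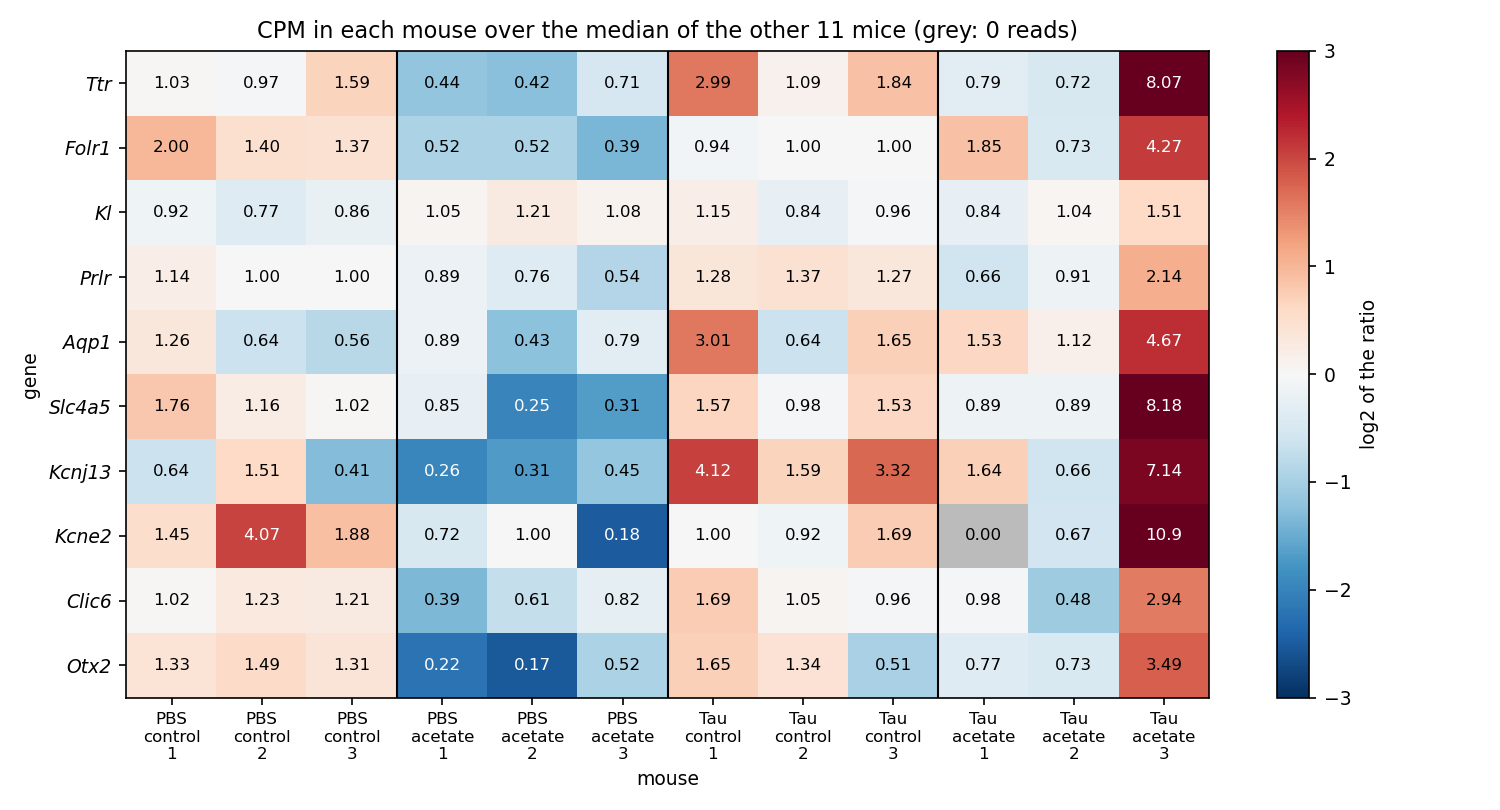
Ratio of each mouse's CPM to the median of the other 11 mice, with genes in rows, mice in columns, the ratio as a number and its log2 as color. Tau acetate 3 is high in every row (1.51 for Kl to 10.9 for Kcne2), and the 3 PBS acetate mice are low in each row but Kl, with Kcne2 in PBS acetate 2 at the median.

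In PBS mice on acetate, all 3 mice lay below the median of the other 9 mice for 9 members, Kl being the exception with 0 of 3 mice below. That pattern held for 22.7% of all genes. For Ttr, Folr1 and Slc4a5 all 3 mice lay below the lowest of the other 9, as they did for 1.24% of all genes. These low values too belong to the choice of members. For Kl the median of the PBS acetate mice was 41.0 CPM against 36.0 CPM in the other 9. For Otx2, where the difference was wide, it was 0.323 against 1.51 CPM, and for Prlr, where it was narrow, 3.76 against 5.65 CPM.

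Which members rose and fell with Ttr from mouse to mouse was described with a straight line of each member's CPM on the CPM of Ttr. The height of the line where Ttr would be 0, as a percentage of the member's mean, gives the part of its level that did not go with Ttr. The line assumes that Ttr itself comes from choroid plexus alone, and it rests on the same mice whose values chose the members, so the heights and their 95% intervals describe the line and test nothing. The height was 88.6% for Kl (95% interval 77.6 to 99.6, n = 12) and 72.1% for Prlr (55.7 to 88.4, n = 12). Without Tau acetate 3 they were 98.1% for Kl (80.3 to 115.8, n = 11) and 73.4% for Prlr (44.8 to 101.9). For Clic6 the height was 53.6% (36.9 to 70.3), and 50.5% (21.3 to 79.7) without that mouse. These 3 heights changed little without Tau acetate 3, but the intervals of Prlr and Clic6 over 11 mice overlap widely. Kl had the highest height with and without that mouse.

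For Otx2 the height was 47.4% (20.5 to 74.3) over 12 mice and 54.6% (1.9 to 107.4) without Tau acetate 3. For Aqp1 it was 37.5% (10.6 to 64.4) and 26.3% (-24.0 to 76.6), and for Kcnj13 21.6% (-9.9 to 53.2) and -9.1% (-65.0 to 46.8). The heights of the remaining 3 members moved out of their 12-mouse intervals. Slc4a5 went from -2.6% to 53.8% (5.8 to 101.9), Kcne2 from -7.3% to 77.0% (-43.6 to 197.7), and Folr1 from 44.9% to 87.7% (19.6 to 155.7). For these 6 members the 11-mouse intervals were too wide to fix how much of the level went with Ttr. With the summed level of the other choroid plexus genes in place of Ttr, all 9 heights moved out of their intervals. They moved to 41.8% for Kl, -85.6% for Prlr and between -602.9% (Slc4a5) and -197.2% (Clic6) for the others. That sum never fell below 413 CPM, so a level of 0 lies far outside the data. A large part of it is Enpp2, which also marks oligodendrocytes. Over the 11 mice without Tau acetate 3 the medians were 264 CPM for Enpp2 and 516 CPM for the sum. The percentages thus hold for Ttr as the measure only.

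**Figure D3:**
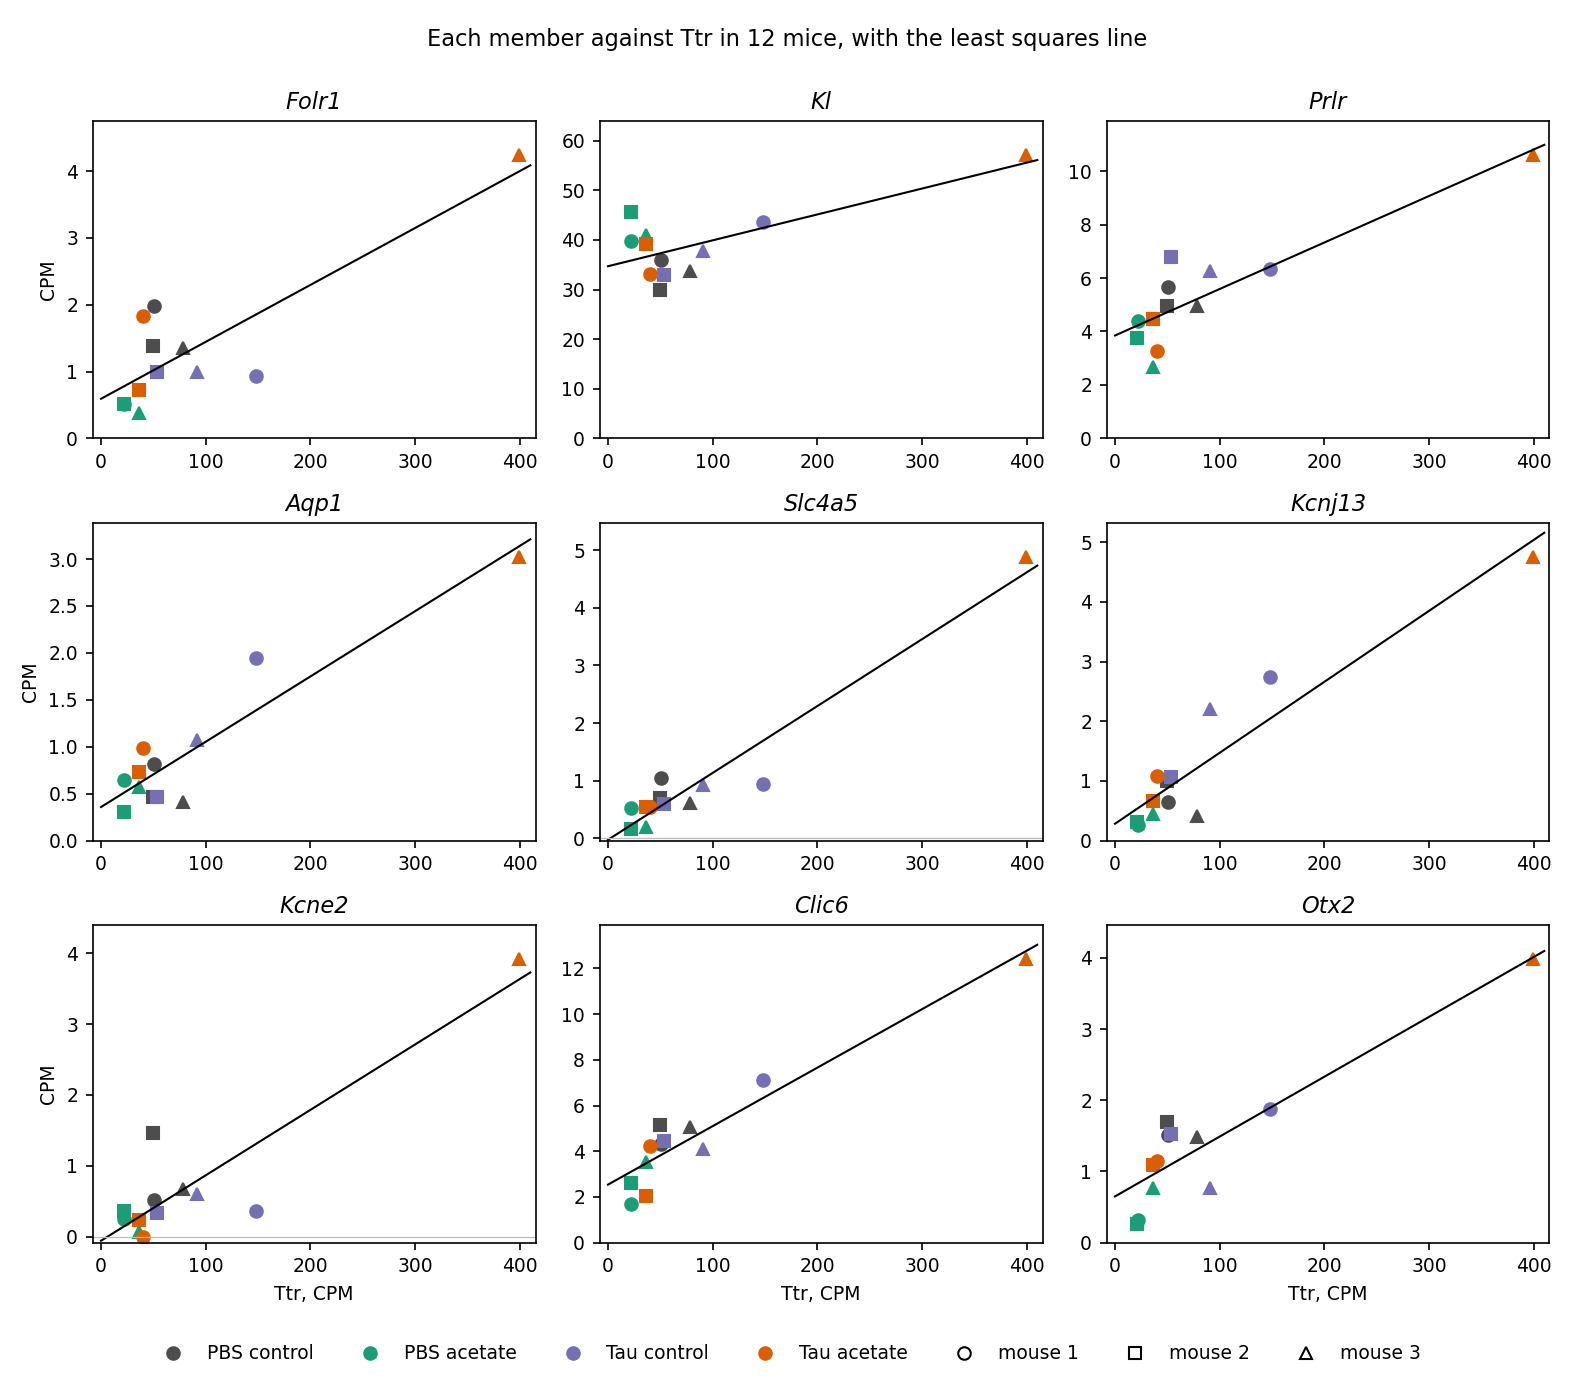
CPM of 9 members against CPM of Ttr in the 12 mice, colored by group, with the least squares line over all 12. The line for Kl meets the axis at 34.7 CPM and that for Prlr at 3.85 CPM, and the point at 399 CPM of Ttr, Tau acetate 3, lies far to the right of the others and weighs on every line.

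On the log2 scale, Pearson's r with Ttr over 12 mice was 0.90 for Clic6, 0.88 for Kcnj13, 0.87 for Slc4a5, 0.83 for Otx2, 0.81 for Prlr and Aqp1, 0.72 for Folr1, 0.67 for Kcne2 and 0.45 for Kl. Spearman's rho was between 0.58 (Aqp1 and Kcne2) and 0.89 (Slc4a5), except for Kl, at -0.02. Without the 2 mice farthest from the median of Ttr, Tau acetate 3 and Tau control 1, r over 10 mice was 0.75 for Clic6, 0.69 for Kcnj13, 0.67 for Slc4a5 and 0.70 for Otx2. It was 0.58 for Prlr and Folr1, 0.30 for Aqp1, 0.42 for Kcne2 and -0.58 for Kl. These are descriptions over libraries that share their scaling, with no test, and the genes with few reads carry more counting noise.

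Reads of a member per 1000 reads of Ttr give the same question without a line. For Kl they ran from 143 in Tau acetate 3 to 2130 in PBS acetate 2, a 14.9-fold range. For Prlr the range was 7.44-fold, from 26.6 in Tau acetate 3 to 198 in PBS acetate 1. Clic6 was also lowest in Tau acetate 3, at 31.1, against 45.2 to 123 in the other 11 mice. Folr1, Aqp1 and Otx2 ranked 11 of 12 in that mouse, and Kcnj13 ranked 10. Their ranges over the 12 mice were 7.21-fold for Folr1, 5.62-fold for Aqp1, 4.11-fold for Otx2 and 5.27-fold for Kcnj13. Slc4a5 had 12.2 in Tau acetate 3, close to the median of 11.6 over the 12 mice, and Kcne2 had 9.82 against a median of 7.67.

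Tau control 1, the next highest mouse in Ttr, was set against the ratios of the other mice. The ratio of member to Ttr reads, summed over the other 11 mice with Tau acetate 3 included, gave 29.9 reads of Kcnj13 there, and 38 were counted. For Aqp1 it gave 22.7 reads and 27 were counted. For Folr1 it gave 35.9 and 13 were counted, for Kcne2 19.2 and 5, and for Slc4a5 25.1 and 13. In Tau acetate 3 the ratio over the other 11 mice gave 107 reads of Kcnj13 where 74 were counted, 86.0 of Aqp1 where 47 were counted, 122 of Folr1 where 66 were counted, 47.3 of Kcne2 where 61 were counted and 68.3 of Slc4a5 where 76 were counted. Kcnj13 and Aqp1 were thus above the ratio in Tau control 1 and below it in Tau acetate 3, Slc4a5 and Kcne2 the other way around, and Folr1 below it in both. Differences as small as 27 against 22.7 or 76 against 68.3 reads do not set members apart, since counting error was not taken into account. For the 5 reads of Kcne2 the exact 95% Poisson interval is 1.62 to 11.7. The ratio for Tau control 1 also leans on Tau acetate 3, which had 6211 reads of Ttr where the next mouse had 1195. In CPM, Slc4a5 in Tau control 1 was still 1.57 times the median of the other 11 mice, against 0.942 times for Folr1 and 0.999 times for Kcne2.

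The genes outside the 10 whose log2 CPM were most like Ttr over the 12 mice were Nwd2 (r = 0.914, and 0.826 without Tau acetate 3), Prkar2a (0.913 and 0.806), F5 (0.9 and 0.819), Sulf1 (0.868 and 0.788), Gng4 (0.864 and 0.753), Ripply2, Slc37a2, Rrp8, Arhgap28 and Ace (0.822 and 0.571). All 10 were highest in Tau acetate 3. Ttr itself stood far highest in that mouse, so the ranking favors such genes and nothing is read from this. F5, coagulation factor V, Sulf1, a heparan sulfate endosulfatase, and Ace, angiotensin-converting enzyme, are on the list of other choroid plexus genes. By the same measure Clic6 was the 3rd, Kcnj13 the 5th and Slc4a5 the 6th most like Ttr of 14741 genes, and Kl was the 753rd.

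Other choroid plexus genes were given by a list of 34, of which 26 passed the filter and Mfrp had 0 reads in every mouse. Of the 26, 17 were highest in Tau acetate 3 and 10 were at least 2-fold above the median of the other 11 mice. The median ratio was 1.60, against 4.47 for the members and 1.00 for all genes tested. The genes with the highest ratios were Col8a1 at 6.96, Cldn2, a claudin of leaky epithelia, at 3.74 and 1500015O10Rik at 3.73. Enpp2, which also marks oligodendrocytes, was at 1.51. The summed level of the list was 507 to 573 CPM in PBS control, 413 to 460 in PBS acetate, 453 to 552 in Tau control and 536 to 742 in Tau acetate. Mfrp aside, no defining marker was at 0 throughout, but Cldn3, Steap1, Wfdc2 and Slc16a8 never passed 10 reads.

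The ependymal list, 12 genes such as Foxj1, the regulator of motile cilia, did not follow Ttr. Its summed level was 77.4 to 95.9 CPM in PBS control, 42.4 to 47.5 in PBS acetate, 43.1 to 61.7 in Tau control and 65.9 to 106 in Tau acetate, where Tau acetate 3 was at 81.8 and Tau acetate 1 was highest. Pearson's r of Ttr with it was 0.25 over 12 mice and 0.12 without Tau acetate 3. Folr1 had the highest values of the members, with r = 0.78 and 0.88. Its r with the summed level of the other choroid plexus genes was 0.89 and 0.78. Otx2 had r = 0.56 and 0.54 with the ependymal list, and Slc4a5 had 0.45 and 0.46. Kl had r = -0.38 and -0.79 with the ependymal list, and 0.77 and 0.76 with the summed level of 5 CA1 markers. The other hippocampal lists differed, with r = -0.64 and -0.56 for CA3 and 0.29 and 0.12 for dentate granule. Kl also had r = 0.63 and 0.47 with meningeal fibroblast genes and 0.49 and 0.49 with endothelial genes. With thalamus and habenula genes it had r = -0.28 and -0.50, and with the red cell list -0.19 and -0.21. CA1 markers summed to 452 to 589 CPM in PBS control and 718 to 946 CPM in PBS acetate, so they and Kl were higher in the same mice. CA3 markers were lower there, at 116 to 199 CPM against 210 to 256 CPM in PBS control. The part of slice composition in the level of Kl was not tested.

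The other lists gave the rest of the slice. Meningeal fibroblast genes summed to 46.7 CPM in Tau acetate 3, the highest of the 12, against a median of 33.7 in the other 11, a ratio of 1.39. Endothelial genes were at 1.05 times the median there. Thalamus and habenula genes were at 1.21 times and highest in PBS control 2 (258 CPM), the mouse with the next highest Kcne2. CA1 genes were at 1.37 times the median in Tau acetate 3 (935 against 684 CPM), where they ranked 2 of 12. CA3 genes were at 0.666 times the median there and dentate granule genes at 1.16 times. Of the red cell list, Hba-a1, Hba-a2, Hbb-bs and Hbb-bt had 0 reads in every mouse, so blood could not be judged from it.

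**Figure D4:**
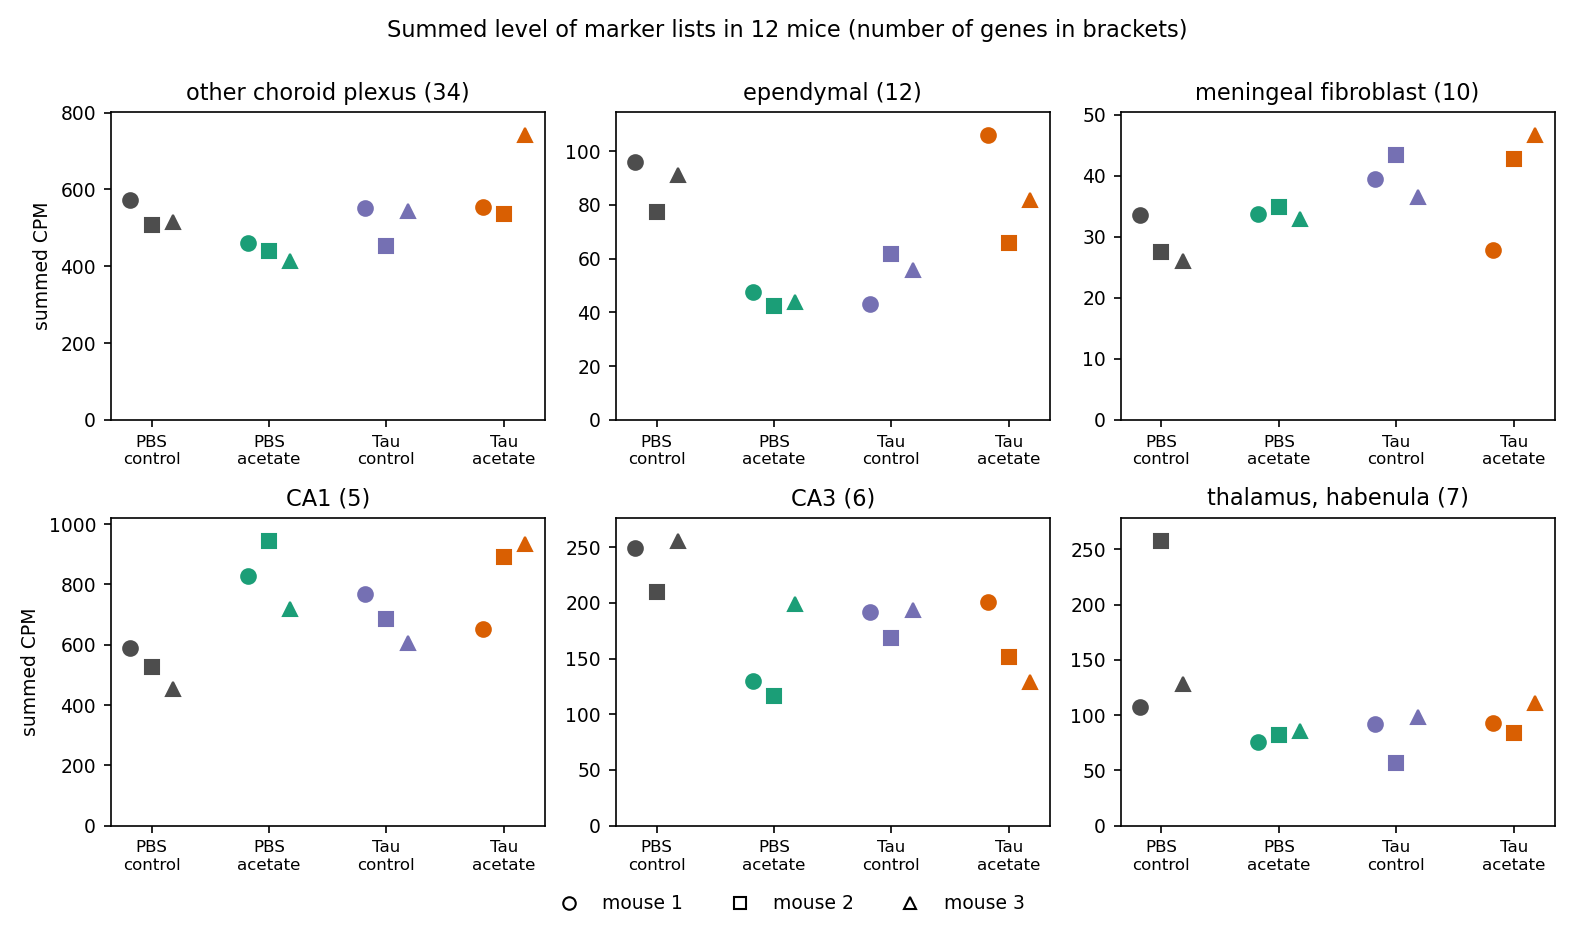
Summed CPM of 6 marker lists by group, with 1 point per mouse and axes from 0. The choroid plexus list, a large part of it Enpp2, is highest in Tau acetate 3 (742 CPM). The ependymal list is low in all PBS acetate mice (42.4 to 47.5 CPM) and highest in Tau acetate 1 (106 CPM). The CA1 list is higher in PBS acetate (718 to 946 CPM) than in PBS control (452 to 589 CPM). The CA3 list is lower in PBS acetate (116 to 199 CPM) than in PBS control (210 to 256 CPM).

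Tau against PBS on the control diet compares groups that the choice of members did not name. Its errors still depend on that choice. The fit shares its estimate of spread for a gene over all 12 mice, Tau acetate 3 included. By edgeR's quasi-likelihood test over all 12 mice, 0 of 10 members passed an adjusted p below 0.1, with 0 at an unadjusted p below 0.05, and 0.0136% of all genes passed. By DESeq2, 0 members and 0.688% of all genes passed, and DESeq2 gave no adjusted p for 6 of the 10. The median log2 fold change was 0.15 over the members and -0.001 over all genes. The largest difference was that of Kcnj13, at 1.55 ± 0.72 (SE), with adjusted p = 0.518. It was 1.26 without Tau control 1. Fitted on the 6 compared mice alone, with Kcne2 not fitted, edgeR called 0 members and 35 genes in all. Kcnj13 then had adjusted p = 0.222. Groups did not overlap for Kcnj13, Prlr and Folr1, that is for 3 of 10 members, against 13.5% of all genes.

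Ttr, at 59.6 ± 16.3 CPM (SD, n = 3) in PBS control and 97.5 ± 47.3 CPM in Tau control, had a log2 fold change of 0.71 ± 0.92 (adjusted p = 0.870), and 0.28 without Tau control 1. Aqp1 had 0.99 ± 0.63 (adjusted p = 0.683), and 0.39 without that mouse. Folr1 and Kcne2 lay on the other side, at -0.70 ± 0.49 (adjusted p = 0.708) and -0.99 ± 1.39 (adjusted p = 0.882). Prlr was at 0.32 ± 0.35, Kl at 0.19 ± 0.19, Clic6 at 0.11 ± 0.57, Slc4a5 at 0.03 ± 0.92 and Otx2 at -0.16 ± 0.51, with adjusted p between 0.808 and 0.996. The signs of Clic6, Slc4a5 and Otx2 turned when single mice were left out. These errors come from the fit over all mice, Tau acetate 3 included. With errors of this size a difference of 2-fold, 1 on this scale, lay within 2 SE of the estimate for each member except Kl. These data therefore do not show that the levels of those members were alike in tau and PBS mice. Of the 26 other choroid plexus genes 0 were called by edgeR or DESeq2 and 3 were at an unadjusted p below 0.05, 18 were higher and 8 lower, and their median was 0.12.

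**Figure D5:**
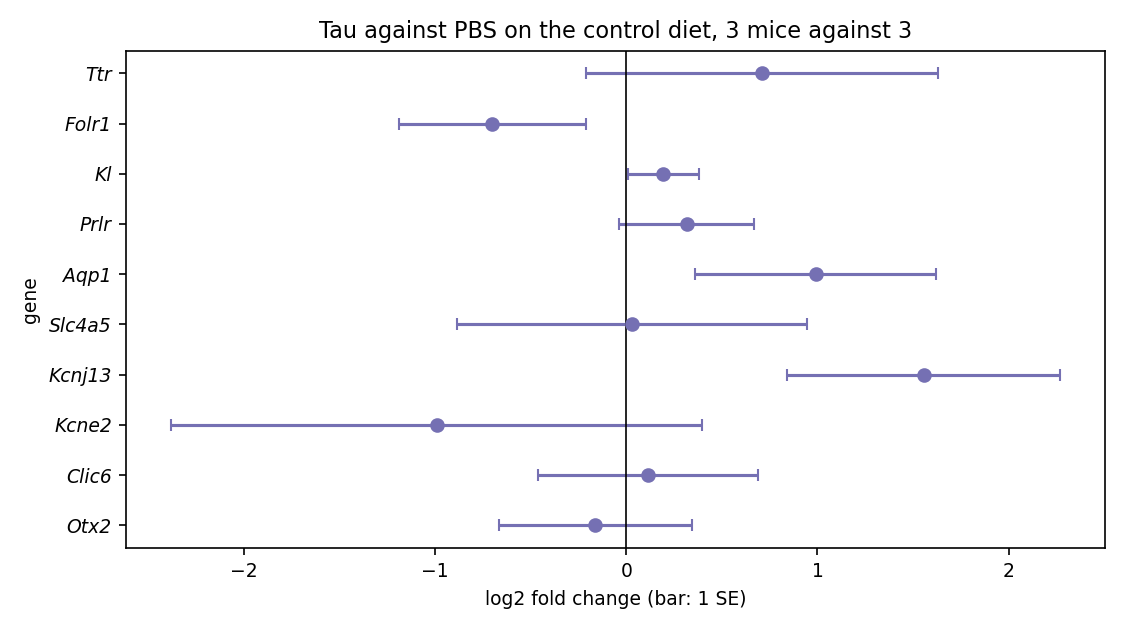
Log2 fold change of each member, tau against PBS on the control diet (3 mice against 3), with 1 standard error as a bar. The standard errors come from the edgeR fit over all mice, Tau acetate 3 included, and not from the compared mice alone. The estimates run from -0.99 (Kcne2) to 1.55 (Kcnj13), and 0 of 10 were called.

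In the comparisons with an acetate group, which the choice of members used, the fitted values are a description and nothing is read from the counts. For acetate against control diet in PBS mice, Folr1 (log2 fold change -1.73 ± 0.53, adjusted p = 0.0746) and Otx2 (-1.81 ± 0.59, adjusted p = 0.0939) were called, that is 2 of 10 members by edgeR and by DESeq2, against 8.84% of all genes by edgeR and 9.29% by DESeq2. Folr1 was not called without any 1 of the 6 PBS mice, with adjusted p up to 0.233. Otx2 was not called without any of PBS control 1 to 3, PBS acetate 1 and 2 or Tau control 1 and 2, with adjusted p up to 0.325. Ttr was at -1.17 ± 0.99 (adjusted p = 0.556). Kl went the other way, at 0.34 ± 0.18 (adjusted p = 0.324), and was called without Tau acetate 3 (0.35, adjusted p = 0.0655). Of the other choroid plexus genes, Calml4 (-1.76, adjusted p = 0.0268) and 1500015O10Rik (-1.69, adjusted p = 0.0781) were called by edgeR. Without Tau acetate 3 this count was 7 of 26, without Tau control 2 or Tau acetate 2 it was 4, without PBS control 1 or 3, PBS acetate 1 or Tau control 1 it was 1, and without PBS acetate 2 it was 0. The share over all genes is not given for these fits. Over all 12 mice, 11 of 12 ependymal genes were called lower in this comparison, with a median of -1.29.

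For acetate against control diet in tau mice, 0 of 10 members were called by edgeR or DESeq2, with 1 at an unadjusted p below 0.05 and no DESeq2 adjusted p for 8, against 0.0611% of all genes by edgeR and 2.19% by DESeq2. Ttr, at 97.5 ± 47.3 CPM in Tau control and 159 ± 208 CPM in Tau acetate (SD, n = 3), had a log2 fold change of 0.69 with all mice and -1.34 without Tau acetate 3. Kl, Aqp1, Slc4a5, Kcnj13, Kcne2, Clic6 and Otx2 also turned from higher to lower without it. Folr1 was an exception, at 1.19 with it and 0.42 without.

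For tau against PBS on the acetate diet, 0 of 10 members were called by edgeR, with 6 at an unadjusted p below 0.05, against 0.136% of all genes. DESeq2 called 4 of 10, namely Folr1, Slc4a5, Kcnj13 and Otx2, against 0.674% of all genes. The members' median was 2.21 on the log2 scale and that of all genes -0.004. Without Tau acetate 3, Ttr went from 2.58 to 0.54, Slc4a5 from 2.75 to 0.94, Kcne2 from 2.44 to -1.05 and Kl from 0.03 to -0.23, while Folr1 (2.22 to 1.45), Kcnj13 (2.63 to 1.38) and Otx2 (2.19 to 1.33) kept a larger part. Without Tau acetate 2, edgeR called 3 members, Folr1, Kcnj13 and Otx2. The share over all genes is not given for that fit, so nothing is read from this count.

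The difference between the diet effects in tau and in PBS mice was called for 1 of 10 members by edgeR, Folr1, against 1.56% of all genes, and for 2 of 10 by DESeq2, Folr1 and Otx2, against 2.8% of all genes. The difference for Folr1 was 2.92 on the log2 scale (adjusted p = 0.0755) and 2.15 without Tau acetate 3. It was not called when any 1 of 9 mice was left out, and it was called without PBS control 3, Tau acetate 2 or Tau acetate 3. Among ependymal genes, with which Folr1 went as it did with the other choroid plexus genes, 7 of 12 were called higher in the same comparison. For Ttr the difference was 1.87, and -0.17 without Tau acetate 3.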

How the data were processed

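Poly(A) RNA of 12 mice was sequenced. The authors aligned reads to GRCm38 with STAR 2.5.2a, counted them per gene on exons of the reverse strand with HTSeq 0.9.1, and deposited raw counts. The annotation release is not given in the sources used here. From these counts, genes were kept by filterByExpr (minimum count 10, minimum total 15), scaled by TMM and fitted in R 4.3.3 with edgeR 4.0.16 (robust quasi-likelihood, F test), giving each group its mean over 12 mice with 8 residual degrees of freedom. Benjamini-Hochberg adjustment ran over the 14742 genes tested, with a threshold of 0.1. DESeq2 1.42.0, the study's tool, was an alternative. The common biological coefficient of variation was 7.25%, and counting noise limited genes with few reads. P-values measure the spread between mice, since each library was 1 mouse. Log2 CPM used a prior count of 2. Exon lengths came from GENCODE M21, with 24534 of 24985 symbols matched. The functions were tested on simulated data.

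The members and gene lists were chosen with earlier results of these data known. Named genes were the 10 members, the 10 others most correlated with Ttr, called genes of the choroid plexus list and summed marker lists. Col8a1, Cldn2, Enpp2 and the genes with few reads were named after their values were seen. Alternatives were DESeq2, its size factors, no filter, a threshold of 0.05, the replicate number as a block, the 6 compared mice alone, each mouse left out, no TMM, a prior count of 0.5, and the choroid plexus list in place of Ttr.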

Additional observations from a re-analysis of the deposited data

Results flagged for a closer look

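The fitted diet effect on Folr1 was higher in tau than in PBS mice by 2.92 on the log2 scale (interaction term of edgeR's fit, adjusted p = 0.0755). It was not called when any 1 of 9 mice was left out, with adjusted p up to 0.2. Folr1 was lower on acetate in 3 of 3 PBS mice than in any PBS control mouse, whereas in tau mice 2 of 3 acetate mice were above the Tau control mice. The acetate groups were used in choosing the members, so the value and its adjusted p are a description and test nothing.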

How the results depend on the processing

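With DESeq2, members called rose to 4 (tau against PBS on acetate) and 2 (interaction), and other choroid plexus genes called to 5 (acetate in PBS mice), 4 (tau against PBS on acetate) and 3 (interaction). With no filter, calls in PBS mice fell to 1 member and 1 other gene, and 1 member (tau against PBS on acetate) and 1 other gene (interaction) were gained. At 0.05, calls were 0 members and 1 other gene in PBS mice and 0 members for the interaction. On the 6 compared mice, PBS mice gave 4 members and 6 other genes, and genes with few reads could not be fitted. With the replicate block, 3 (acetate in PBS mice), 2 (tau against PBS on acetate) and 3 (interaction) other genes were called, Kcnj13 and Ttr for acetate in tau mice were at -0.08 and 0.13, and no member call changed. Over all genes, the main fit called 1303 (acetate in PBS mice), 20 (tau against PBS on acetate) and 230 (interaction). In the same order, calls were 1371, 112 and 434 with DESeq2 and 1113, 37 and 266 with no filter. They were 541, 0 and 43 at 0.05 and 1224, 25 and 349 with the block. The 6 compared mice gave 1537 for acetate in PBS mice, so nothing is read from the counts of members or other genes. Same-numbered mice were not treated as pairs in the main fit. The 18 correlations of their deviations ran from -0.105 to 0.144, and those of other pairs from -0.143 to 0.15. These values cannot show whether mice shared a batch.

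Leaving out 1 mouse, members called ranged from 0 to 3 in PBS mice on acetate, 0 to 3 for tau against PBS on acetate and 0 to 1 for the interaction, and other choroid plexus genes from 0 to 7, 0 to 4 and 0 to 2, and from 0 to 1 for acetate in tau mice. The share over all genes is not given for each mouse left out, so nothing is read from these ranges. Log2 fold changes that turned sign ranged as follows. On the control diet, tau against PBS, these were Slc4a5 -0.12 to 0.31, Clic6 -0.17 to 0.25 and Otx2 -0.43 to 0.12. For acetate in PBS mice this was Aqp1, -0.40 to 0.20. For acetate in tau mice these were Ttr -1.34 to 1.16, Kl -0.07 to 0.34, Prlr -0.74 to 0.22, Aqp1 -0.40 to 1.04, Slc4a5 -0.56 to 1.73, Kcnj13 -1.15 to 0.51, Kcne2 -1.89 to 2.25, Clic6 -0.71 to 0.64 and Otx2 -0.32 to 0.85. For tau against PBS on acetate these were Kl -0.23 to 0.19 and Kcne2 -1.05 to 3.08. For the interaction these were Ttr -0.17 to 2.34, Prlr -0.23 to 0.74, Aqp1 -0.21 to 1.23, Kcnj13 -0.17 to 1.49 and Kcne2 -0.06 to 4.07. The causes were not tested. The log2 difference of Tau acetate 3 from the other mice moved by less than their spread without TMM and with a prior count of 0.5, in 20 of 20 cases. The level at a Ttr of 0 moved out of its interval in 12 cases, 3 without Tau acetate 3 and 9 with the choroid plexus list in place of Ttr, and not in the other 105.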
